A study of Mus musculus with 17 samples.

Results

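RUNX1 binding was compared between control cells given doxycycline and control cells left without it, so that the drug was set apart from the leukaemia fusion protein it is used to switch on in the study. Peaks from the 4 RUNX1 lists of control cells, 2 per condition, were kept at a score of at least 9, and any that shared 1 bp or more were joined into a single site. This gave 17741 sites. A site called in both libraries without doxycycline and in neither library with it is termed a −Dox-only site, and there were 359 of these. The converse, a +Dox-only site, was found 138 times, and 9361 sites were shared by all 4 libraries. These 4 libraries are part of a series of 17 samples, of which 16 have a peak list.

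The series is a ChIP-seq study in the 416B line, myeloid progenitor cells of the mouse. Cells received 2 plasmids together with a transposase that integrates them. One plasmid carried the tetracycline silencer and transactivator (tTS and rtTA) and blasticidin resistance, driven by an Ef1alpha promoter. The other carried, under a tetracycline-responsive element, either the Cbfb-Myh11 fusion (CM) joined through F2A to mCherry, or a version that lacks CM. The control cells described here hold the construct labelled Control-ATG, so both of their conditions share the silencer, the transactivator, the responsive element and the antibiotic selection. Control +Dox cells (2 libraries) received doxycycline at 1 ug/ml for 24 hours, and Control -Dox cells (2 libraries) were untreated. Clones were grown from sorted single cells, so each construct is represented by selected clonal cells. How many control clones were used, and whether the replicates were separate cultures, is not given in the sources used here. All 4 libraries were made with the same RUNX1 antibody (Abcam, ab23980) from chromatin crosslinked with 1% formaldehyde.

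RUNX1 is a DNA-binding transcription factor that blood stem and progenitor cells need, and it binds DNA tightly only with its partner CBFB. Its preferred motif has the core TGTGGT, and its sites lie both at promoters and at distal enhancers, often beside ETS, GATA and TAL1 factors. Doxycycline, which releases the tetracycline switch in such systems, is also an antibiotic that inhibits bacterial and mitochondrial protein synthesis, inhibits matrix metalloproteinases and can alter cell metabolism. Genes for those processes were therefore examined beside genes of the blood lineages.

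Each peak has a score from the authors' peak caller, on the scale of −log10 p, used here only to rank and filter peaks within a list. The read depth behind the lists is unknown. A +Dox tag stands in the names of the peaks of Control -Dox replicate 1, against the label of that library. The same tag is carried by Control +Dox replicate 1 and by neither replicate 2 list. It was kept in the group of its label, and results are given with and without it. Both replicate 1 lists were deposited at a p-value threshold of 1e-09 and both replicate 2 lists at 1e-07, so the minimum score of 9 brings all 4 to 1 threshold. Nothing in the lists measures expression, so the identity of the cells could not be checked against RNA markers.

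To show the kind of DNA behind each class, the promoter is printed under the highest-ranked site of that class that covers at least 0.5 of the promoter of a protein-coding gene. Each runs from 250 bases before to 50 bases after the transcript start, 5′ to 3′ on the gene's own strand (RefSeq, GRCm38.p6, the assembly that mm10 names). Capitals mark TGTGGT or its reverse complement ACCACA, searched on both strands.
AI467606, shared, chr7:127091186-127091485, plus strand: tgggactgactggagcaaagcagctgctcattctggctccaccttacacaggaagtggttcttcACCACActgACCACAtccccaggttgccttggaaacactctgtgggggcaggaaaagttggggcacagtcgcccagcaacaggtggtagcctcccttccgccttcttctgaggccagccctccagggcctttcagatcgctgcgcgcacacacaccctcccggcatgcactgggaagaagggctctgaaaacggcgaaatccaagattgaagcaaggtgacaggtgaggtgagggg
Atpaf1, −Dox-only, chr4:115784756-115785055, plus strand: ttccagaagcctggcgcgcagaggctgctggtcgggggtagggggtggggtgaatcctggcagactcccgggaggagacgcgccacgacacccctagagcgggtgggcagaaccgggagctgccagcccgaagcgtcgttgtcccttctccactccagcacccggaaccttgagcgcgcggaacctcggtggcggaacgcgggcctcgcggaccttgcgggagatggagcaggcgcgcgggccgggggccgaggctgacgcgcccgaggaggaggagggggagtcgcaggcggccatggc
Ghdc, +Dox-only, chr11:100770908-100771207, minus strand: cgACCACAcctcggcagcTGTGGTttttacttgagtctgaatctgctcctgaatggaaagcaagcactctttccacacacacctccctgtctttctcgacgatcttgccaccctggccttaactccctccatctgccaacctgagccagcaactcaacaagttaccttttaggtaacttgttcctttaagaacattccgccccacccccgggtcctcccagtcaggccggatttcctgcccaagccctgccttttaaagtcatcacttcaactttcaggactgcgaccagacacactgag

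The AI467606 promoter holds 2 copies of the motif and lay under a site with scores of 199.7 and 185 in the Control -Dox libraries and 296 and 162 in the Control +Dox libraries. The Ghdc promoter also holds 2 copies, but both lie at the 5′ end of the window, outside the called site (chr11:100770807-100771125). That site had scores of 23.6 and 18.6 with doxycycline. In the promoter of Atpaf1, which encodes an assembly factor of the mitochondrial ATP synthase, the motif is not in this window. Its site had scores of 30.3 and 24.2 without doxycycline. Over whole classes, TGTGGT on either strand was found in 16.6% of the 2756 promoters covered by shared sites, and in 16.8% of all 32851 promoters of this length. It was found in 8 of the 78 promoters covered by −Dox-only sites (10.3%, Wilson 95% interval 5.29 to 18.95%) and in 2 of the 18 covered by +Dox-only sites (11.1%, 3.10 to 32.8%). At this number of promoters the 2 condition-only classes could not be told apart. Sites called by both replicate 1 libraries alone covered 798 promoters, of which 73 held the motif (9.15%). Those called by both replicate 2 libraries alone covered 22, of which 2 held it (9.09%). Wilson intervals here and below cover counting error only.

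Most RUNX1 peaks were found with and without doxycycline. At a score of 9 or more the Control -Dox lists held 14010 and 13550 peaks, a mean of 13780.0 ± 325 (SD, n = 2). The Control +Dox lists held 13660 and 12347 peaks, a mean of 13003.5 ± 928 (SD, n = 2). The ranges overlap, since the first Control +Dox list is longer than the second Control -Dox list. The ratio of +Dox to −Dox was 0.943 (two-sided exact permutation test over 6 assignments, p = 0.667, adjusted p = 1 over 5 tests of this kind by Benjamini-Hochberg). With 2 libraries against 2 the smallest p this test can give is 0.333, so it cannot reach 0.05. Within replicate 1 the ratio was 0.975, and within replicate 2 it was 0.911. Leaving out the library labelled Control -Dox replicate 1 gave 0.958. As deposited, at unlike thresholds, the lists held 14010 and 13820 peaks without and 13660 and 12603 with doxycycline. There the ranges did not overlap, and the ratio was 0.943 (same permutation test, p = 0.333).

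Of the 17741 sites, the 9361 shared sites made up 52.8%. The −Dox-only sites made up 2.02% and the +Dox-only sites 0.778%. Sites that followed the replicate number instead were more numerous than either. Both replicate 1 libraries and neither replicate 2 library called 1102 sites, and the converse pattern held 544 sites. Pairs that mixed condition and replicate held 199 sites (Control -Dox replicate 1 with Control +Dox replicate 2) and 267 sites (the other two libraries). A further 3380 sites were called in 1 library and 2391 in 3 libraries.

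**Figure D1:**
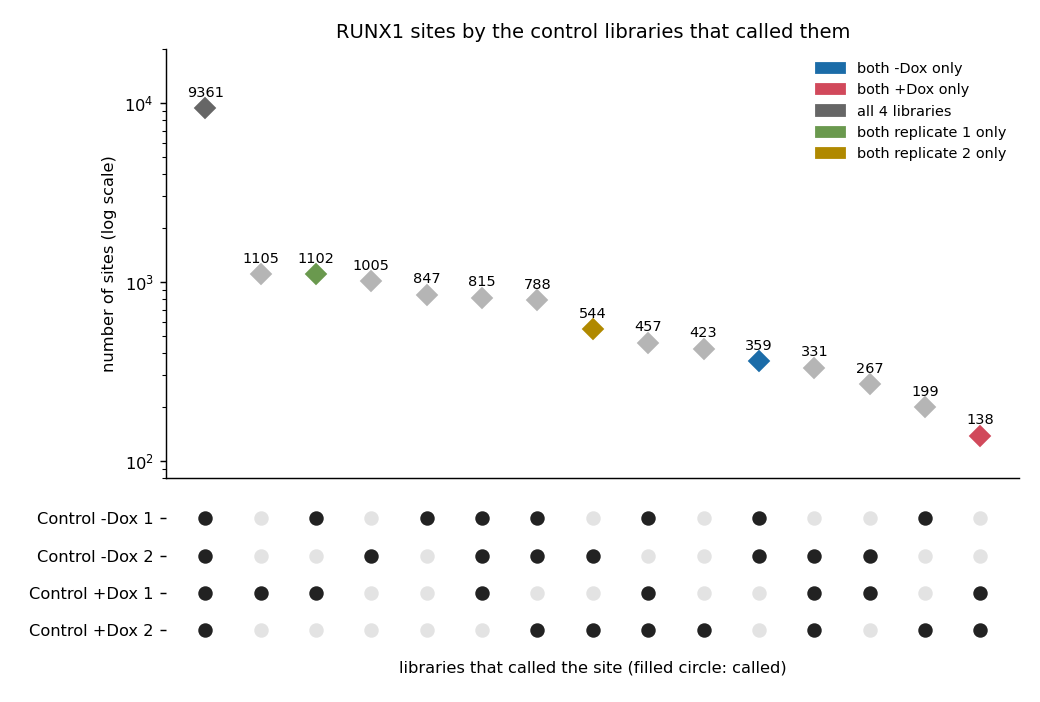
Number of merged RUNX1 sites (vertical axis, log scale) for each combination of the 4 control libraries that called them, shown by filled circles. The combination of all 4 libraries holds 9361 sites, both replicate 1 libraries alone hold 1102, both −Dox libraries alone 359, and both +Dox libraries alone 138.

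The excess of −Dox-only over +Dox-only sites moved with the length of the lists. When every list was shortened to its 12347 highest peaks, the counts were 247 and 244. Of the original members, 195 of the 359 and 109 of the 138 were found again in those classes. With a minimum score of 15 the counts were 301 and 113, and 173 of the 359 and 57 of the 138 were found again. Leaving out the library labelled Control -Dox replicate 1, so that 1 library stood for that condition, gave 1369 −Dox-only and 595 +Dox-only sites. Without Control -Dox replicate 2 the counts were 1208 and 471, without Control +Dox replicate 1 they were 1174 and 566, and without Control +Dox replicate 2 they were 1149 and 1246. The last of these turned the order of the classes. With 3 libraries the shared class held between 9701 and 10179 sites.

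Lists with the same replicate number resembled each other at least as much as lists of the same condition. Of the sites called by either of a pair of libraries, 74.4% were called by both replicate 1 libraries and 75.1% by both replicate 2 libraries. The share was 70.4% for the Control -Dox pair and 66.2% for the Control +Dox pair. For the library with the mismatched tag, the overlap was 74.4% with Control +Dox replicate 1 and 70.4% with its partner by label. For Control -Dox replicate 2, which has no such tag, the overlap was 75.1% with Control +Dox replicate 2. No pair of lists shared more than 10 identical intervals, so none was a copy of another.

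Condition-only sites lay low in their lists, as did other sites called in 2 libraries. Peaks were ranked by score within each list, with 100 the highest percentile, and a site took the mean over the libraries that called it. The median was 19.5 for −Dox-only sites (lowest 0.702, highest 65.3), 18.2 for +Dox-only sites (0.993 to 57.3) and 61.7 for shared sites. It was 21.9 for sites of both replicate 1 libraries alone, 25.6 for those of both replicate 2 libraries alone, and 16.9 and 19.9 for the pairs that mixed condition and replicate. The highest quintile of every list held no condition-only site, and between 99.8 and 100% of its sites were shared. In the lowest quintile, the −Dox-only sites made up 7.14 and 7.23% of the sites of the Control -Dox lists, and the +Dox-only sites 2.34 and 3.51% of those of the Control +Dox lists. Their median width was 270 and 270.5 bp, against 404 bp for shared sites, 323 bp for sites of both replicate 1 libraries alone and 273 bp for those of both replicate 2 libraries alone.

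Few of them had a peak just under the minimum score in the other condition. Among the 359 −Dox-only sites, 14 overlapped a peak of Control +Dox replicate 2 that scored between 7.53 and 8.96, just outside the minimum. Among the 138 +Dox-only sites, 3 overlapped such a peak of Control -Dox replicate 2, between 7.29 and 8.72. The replicate 1 lists end at 9 and hold no such peaks. Just inside the minimum, 86 of the 359 and 41 of the 138 had a lower score of 9 to 12. The nearest peak of the other condition was a median of 14.7 kb away for −Dox-only sites and 13.0 kb away for +Dox-only sites, and within 1 kb for 39 and 19 of them.

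The −Dox-only site with the highest mean rank lay in Fam72a, which encodes a small protein that binds the uracil glycosylase of DNA repair (chr1:131528813-131529168, inside the gene, 0.910 kb from a transcript start). Its scores were 48.1 and 31.2 in the Control -Dox libraries, at the 70.1 and 60.5 percentiles, with no peak in either Control +Dox library. Next was a site 3.76 kb from Lalba, the gene of the milk protein alpha-lactalbumin (chr15:98486695-98486946), with scores of 33.0 and 27.8. A site inside Nepro, a nucleolar protein gene (chr16:44727581-44727848), scored 24.2 and 43.5. One inside Mtss1, which encodes a membrane-bending regulator of actin (chr15:59065059-59065289), scored 34.3 and 26.2. Aff1 encodes a scaffold of the super elongation complex and is a fusion partner in leukaemia. Its intragenic site (chr5:103742121-103742398) scored 44.8 and 18.7. All of these are moderate scores, since shared sites reached a mean score of 339.

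The other named −Dox-only sites lay near Gas2l1, a linker of actin and microtubules, in Atpaf1, in the chromatin reader gene Zmynd8, in the chromodomain gene Cdyl, and 90.8 kb from the kinase gene Sgk1. Their mean percentile ranks ran from 45.3 at Sgk1 to 47.7 at Gas2l1. The Cdyl site was called by all 4 RUNX1 libraries of CM cells, although by neither Control +Dox library. The sites at Lalba, Nepro and Atpaf1 were called by none of the 4. CHD7, the chromatin remodeller also profiled in the study, was called by all 4 control CHD7 libraries at the Atpaf1 and Zmynd8 sites, by 1 at Nepro and by none at the other named −Dox-only sites.

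With doxycycline, the highest-ranked site lay 11.6 kb from Thoc3, whose product belongs to a messenger RNA export complex (chr13:54447039-54447271). Its scores were 33.6 and 30.1, at the 54.6 and 59.9 percentiles, with no peak without doxycycline. The next lay 53.6 kb from Gm46617, a gene model on chromosome 18 (chr18:35063394-35063659), and scored 37.5 and 21.4. A site inside Ganc, which encodes a neutral alpha-glucosidase (chr2:120446465-120446734), scored 38.7 and 19.7. Near Zbtb41, a zinc finger gene, a site 8.22 kb away (chr1:139413510-139413774) scored 28.3 and 24.5. The small GTPase gene Arl15 held a site (chr13:113840484-113840750) that scored 31.2 and 20.5. None of these 5 sites was called by a control CHD7 library.

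The remaining named +Dox-only sites were 5.63 kb from the ubiquitin ligase gene Trim8, 278 kb from Dleu7, and inside Zcchc14, Atp6v0d2 and Txnrd3. Atp6v0d2 encodes a subunit of the proton pump of osteoclasts, and Txnrd3 a thioredoxin reductase. Their mean percentile ranks ran from 35.3 at Txnrd3 to 42.4 at Trim8. The Trim8 site was called by all 4 RUNX1 libraries of CM cells. CHD7 was called at the Atp6v0d2 site in both Control +Dox CHD7 libraries and in neither Control -Dox one. At the Dleu7 site it was called in Control +Dox replicate 1 only. No control CHD7 library called the Trim8, Zcchc14 and Txnrd3 sites. All 10 named −Dox-only sites and all 10 named +Dox-only sites stayed in their class in lists of equal length and with a minimum score of 15. Their choice by high rank fixed this outcome in advance. The lowest score among them was 16.7 (Atp6v0d2, Control +Dox replicate 2). The lowest percentile was 16.1 (Dleu7, Control +Dox replicate 1), so neither setting could remove them.

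Shared sites at the top of the lists scored far higher. The first lay 13.8 kb from Olfm3, which encodes a secreted olfactomedin (chr3:114889701-114890296), and scored 342 and 317 without and 430.2 and 265 with doxycycline. The site in Epb41l3, a membrane skeleton gene (chr17:69265030-69265630), scored 316 and 290 without and 371 and 280.1 with it. At Dmwd (chr7:19077670-19078238) the scores were 303 and 307 without and 451 and 258 with it. Scores are on each list's own scale. By rank within its list, each of these sites stood at the 99.9 percentile or higher in all 4 libraries. Others in this group of 10 lay 12.1 kb from the cation channel gene Trpc6, 237 kb from Cited2 (a partner of the co-activators CBP and p300 that blood stem cells need), 5.16 kb from Ffar2 (a receptor for short-chain fatty acids), 385 kb from Car8, 127 kb from Gsdmc, 44.7 kb from Ppcdc, and inside Evi5. Their mean percentile ranks ran from 99.89 at Evi5 to 99.99 at Olfm3.

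The gene of RUNX1 itself held peaks near the top of every list. Runx1 (chr16:92601466-92826074) held 9 sites in Control -Dox replicate 1, 10 in Control -Dox replicate 2, and 9 in each Control +Dox library, within the gene or 5 kb of it. All 9 sites that recurred were shared. Its best peak stood at the 99.3 and 99.5 percentiles without and the 99.3 and 99.4 percentiles with doxycycline.

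Position relative to genes differed more between replicate numbers than between conditions. A gene end is either boundary of a protein-coding gene in the RefSeq table. The share of peaks within 1 kb of one was 35.3% and 27.5% in the Control -Dox libraries and 35.8% and 26.7% in the Control +Dox libraries. In each condition replicate 1 was high and replicate 2 was low, and the conditions overlapped. The difference of +Dox minus −Dox was -0.152 percentage points (exact permutation test, two-sided, p = 1). Replicate 1 alone gave 0.524 and replicate 2 alone -0.827. Without the library labelled Control -Dox replicate 1 it was 3.75, and without any 1 library it lay between -4.73 and 4.42.

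By class, 27.3% of −Dox-only sites lay within 1 kb of a gene end (98 of 359, Wilson 95% interval 22.9 to 32.1%), 19.6% of +Dox-only sites (27 of 138, 13.8 to 27.0%) and 28.8% of shared sites (2698 of 9361, 27.9 to 29.7%). The 2 classes defined by replicate number stood further apart, at 71.1% for sites of both replicate 1 libraries alone and 9.56% for sites of both replicate 2 libraries alone. Sites called in 3 libraries did likewise. The share was 63.8% where Control +Dox replicate 2 alone was missing and 54.0% where Control -Dox replicate 2 alone was missing. It was 14.97% where Control +Dox replicate 1 alone was missing and 10.9% where Control -Dox replicate 1 alone was missing.

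The order of the condition-only classes changed with some settings. It held in lists as deposited, with 29.3% of 368 −Dox-only and 20.5% of 146 +Dox-only sites near a gene end. With a minimum score of 15 it held too, with 21.6% of 301 and 17.7% of 113. In lists of equal length, 26.3% of 247 −Dox-only sites and 33.6% of 244 +Dox-only sites were near a gene end. Without the library labelled Control -Dox replicate 1 the shares were 16.7% and 46.1%, and without Control -Dox replicate 2 they were 44.5% and 13.4%. Without Control +Dox replicate 1 they were 52.6% and 15.7%, and without Control +Dox replicate 2 they were 18.9% and 42.0%. In each setting with a library left out, the class that rested on a lone replicate 1 library, or was missing only from a replicate 2 library, had the higher share. The part of the replicate number in the class difference was not tested otherwise. By transcript starts in place of gene ends, a measure added after the data were seen, the shares were 27.1% for −Dox-only, 14.8% for +Dox-only and 28.6% for shared sites.

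**Figure D2:**
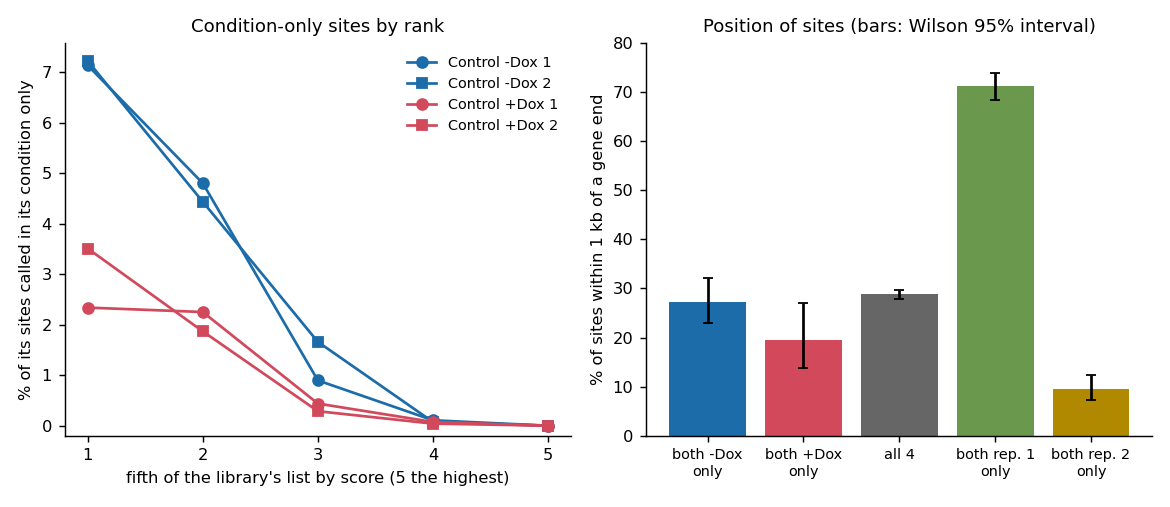
Left, the share of a library's sites that were called in both libraries of its condition and in neither of the other (vertical axis, %), by quintile of the list by score. It goes from 2.34 to 7.23% in the lowest quintile to 0 in the highest. Right, the share of sites within 1 kb of a gene end (%), by the libraries that called them, with Wilson 95% intervals. Sites of both replicate 1 libraries stand at 71.1% and those of both replicate 2 libraries at 9.56%.

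Among the 9361 shared sites, ranks moved little with doxycycline. For this comparison each library ranked these sites only, by its best score at each, and not its whole list. Spearman's rho of the ranks over these sites was 0.874 between the replicate 1 libraries and 0.909 between the replicate 2 libraries, across conditions. It was 0.794 between the Control -Dox libraries and 0.761 between the Control +Dox libraries. These correlations are across sites of the same lists and carry no test. The median size of the difference between the mean +Dox and the mean −Dox percentile was 5.33 percentile points, and that between the mean replicate 1 and the mean replicate 2 percentile was 8.97. Differences of over 20 points were seen at 451 sites for doxycycline and at 1997 sites for the replicate number.

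Both +Dox ranks lay above both −Dox ranks at 1158 shared sites (12.4%), and below them at 1023 (10.9%). Without the library labelled Control -Dox replicate 1 these counts were 2929 and 3064. Without Control -Dox replicate 2 they were 3034 and 2687, without Control +Dox replicate 1 they were 3257 and 2834, and without Control +Dox replicate 2 they were 3394 and 3479. A site with fewer libraries to keep apart meets the rule more readily.

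**Figure D3:**
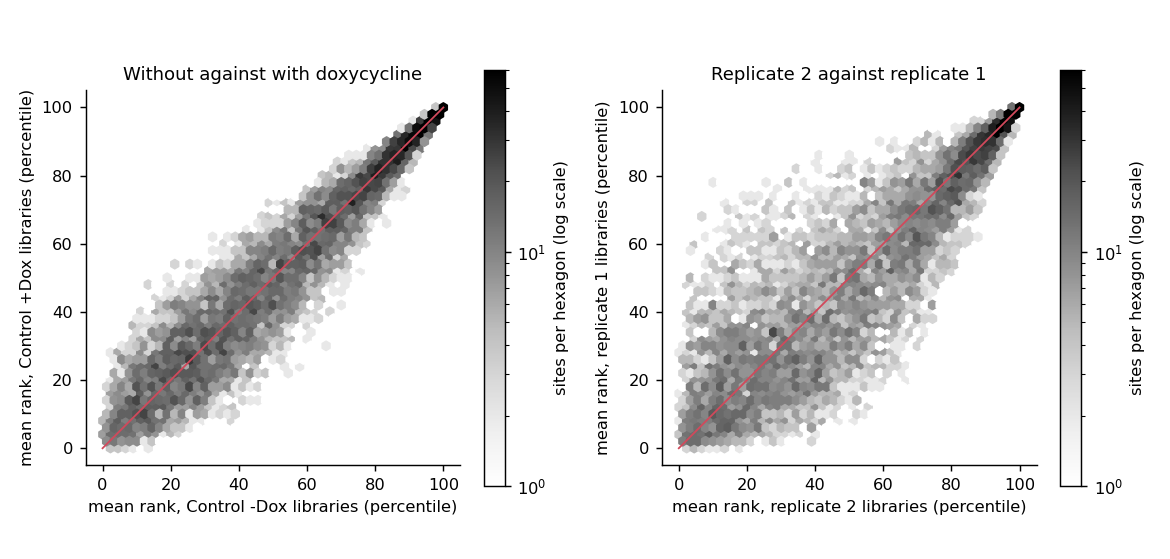
Mean percentile rank of the 9361 shared sites (axes, percentile of a library's best score among these sites only). The left panel sets without against with doxycycline, and the right panel sets replicate 2 against replicate 1. The darkness of a hexagon gives its number of sites on a log scale, and the line marks equal ranks. The median distance between the 2 means is 5.33 points on the left and 8.97 on the right.

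By mean rank among the shared sites alone, the site that stood higher with doxycycline by the widest margin lay inside Zbtb25, a zinc finger gene (chr12:76361282-76361654). That margin was 46.9 points. Within the full lists its percentiles were 34.6 and 28.8 without and 81.6 and 62.3 with doxycycline. Percentiles of the other sites named here and in the next paragraph are also within the full lists, a scale on which their order can differ. The site in Rdm1, a gene of the RAD52 motif family (chr11:101627537-101628000), stood at 49.1 and 1.99 without and at 74.5 and 58.2 with it. Further sites of this kind lay near Zfp366, a zinc finger gene of dendritic cells, and in Rbbp5, a core subunit of histone H3 lysine methyltransferase complexes. Rbbp5 stood at 54.0 and 40.4 without and 71.1 and 75.7 with it. These sites were chosen for their difference, which is therefore given with no test.

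In the other direction, the site in Elf4, an ETS transcription factor gene on chromosome X (chrX:48425288-48425646), stood at the 73.1 and 79.0 percentiles without and at 22.1 and 46.6 with doxycycline. The site in Ahsa2, an HSP90 co-chaperone gene (chr11:23497732-23498409), stood at 78.2 and 41.3 without and at 29.1 and 2.79 with it. Igsf5, a junctional adhesion gene, had 77.8 and 81.9 without and 35.3 and 58.6 with it. The others were 18.2 kb from the meiotic gene Shoc1 and inside Dus2, which encodes an enzyme that modifies transfer RNA. Dus2 stood at 67.4 and 64.2 without and 27.5 and 22.6 with it.

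CHD7 calls at these sites were next compared with the 4 CHD7 lists of the same control cells, which the choice of sites had not used. At the −Dox-only sites a CHD7 peak was called in 35.1% and 44.8% without and in 35.4% and 36.5% with doxycycline, a difference of -4.04 percentage points. At the +Dox-only sites the shares were 33.3% and 42.8% without and 36.2% and 42.0% with it, a difference of 1.09. At shared sites they were 46.9% and 61.2% without and 49.3% and 56.7% with it, a difference of -1.08. In every class the values with doxycycline lay within the range of those without (exact permutation test over 6 assignments, two-sided, p = 1 in each class). The direction at +Dox-only sites turned when any 1 RUNX1 library was left out (-1.85 without the library labelled Control -Dox replicate 1). Leaving out the CHD7 library Control -Dox replicate 2 turned it at −Dox-only sites (0.836) and at shared sites (6.04), and leaving out the CHD7 library Control +Dox replicate 1 turned it at shared sites (2.61). At +Dox-only sites it turned without the CHD7 library Control -Dox replicate 1 (-3.62) and without Control +Dox replicate 2 (-1.81). CHD7 lists of 16323 to 32448 peaks underlie these shares, and list length was not matched across them.

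CHD7 calls rarely followed the same split as RUNX1 calls. CHD7 was called in both −Dox libraries and neither +Dox library at 10 of the 359 −Dox-only sites (2.79%) and at 188 of the 9361 shared sites (2.01%). In both +Dox libraries and neither −Dox library it was called at 2 of the 138 +Dox-only sites (1.45%) and at 143 shared sites (1.53%). No control CHD7 library called 41.5% of −Dox-only, 39.1% of +Dox-only and 24.99% of shared sites. The same was true of 52.6% of sites of both replicate 1 libraries alone and 40.3% of those of both replicate 2 libraries alone.

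The RUNX1 lists of CM cells gave a second look at the same sites in a clone with the fusion construct. Without doxycycline, CM cells called 46.0% and 60.7% of the −Dox-only sites, 39.9% and 48.6% of the +Dox-only sites, and 91.3% and 94.2% of the shared sites. For shared sites in the same range of ranks as the condition-only sites (mean percentile 4.08 to 41.6, 2243 sites), a comparison added after the data were seen, it was 80.9% and 87.4%. Those shared sites still stood higher, with a median mean percentile of 30.7 against 19.5 and 18.2. In CM -Dox cells, sites called in 2 libraries of the same replicate number were nearer to the condition-only sites. CM -Dox cells called 53.9% and 58.4% of the sites of both replicate 1 libraries alone, and 34.0% and 61.0% of those of both replicate 2 libraries alone. With doxycycline, CM cells called 18.7% and 23.7% of the −Dox-only, 18.8% and 23.2% of the +Dox-only, and 54.4% and 64.0% of the shared sites. The −Dox-only and +Dox-only shares lay within 0.5 percentage points of each other in each of the last pair of libraries. A site called in both CM -Dox and neither CM +Dox library was found at 78 of the 359 −Dox-only sites (21.7%) and at 21 of the 138 +Dox-only sites (15.2%). Against this, 25.5% of shared sites had that pattern. These shares are over all sites of a class, and only sites called in both CM -Dox libraries can show the pattern. Such sites numbered 137 −Dox-only, 41 +Dox-only and 8423 shared sites, and 78, 21 and 2384 of them showed it. Among shared sites in the same range of ranks, 602 of 1742 did. In CM +Dox cells the drug and the fusion act together, so drug and fusion cannot be told apart there.

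**Figure D4:**
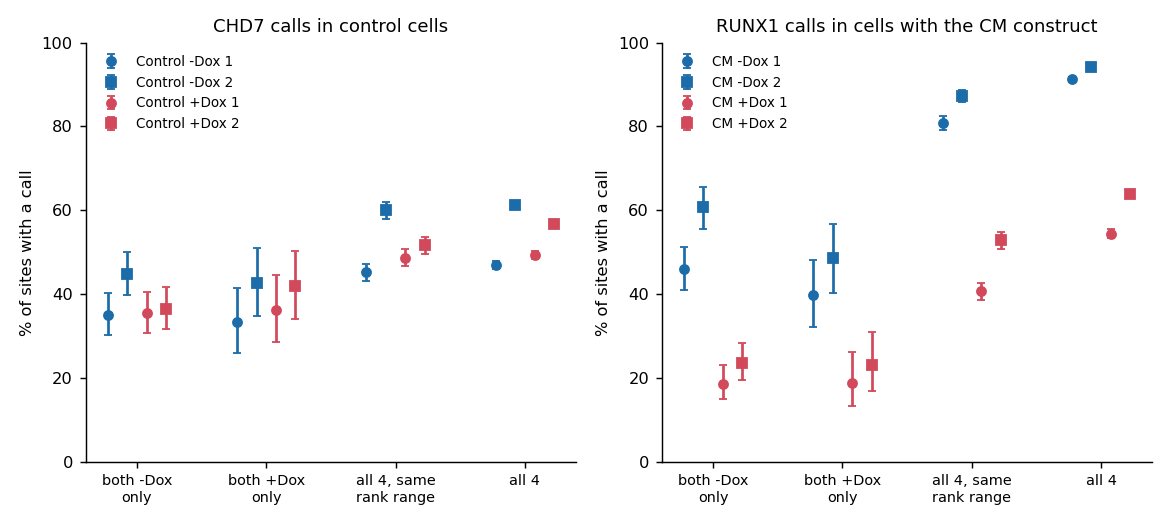
Share of sites with a call (vertical axis, %, with Wilson 95% intervals) in each control CHD7 library on the left and each RUNX1 library of CM cells on the right, for −Dox-only, +Dox-only, shared sites of the same range of ranks, and all shared sites. Blue marks libraries without and red those with doxycycline. In CM -Dox cells 91.3 and 94.2% of shared sites were called, against 39.9 to 60.7% of the condition-only sites.

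Genes were then asked for a reproducible site, one called in both libraries of a condition in the gene or within 5 kb of it. Of 21887 protein-coding genes, 5860 had one in both conditions, 980 in −Dox alone (4.48%) and 407 in +Dox alone (1.86%). Most of these genes had a site in 1 library of the other condition too. Among the 980, 572 had a site in Control +Dox replicate 1 but not replicate 2, 205 in replicate 2 but not replicate 1, and 117 in neither. Among the 407, 260 had a site in Control -Dox replicate 1 but not replicate 2, 76 the reverse, and 38 in neither. A −Dox-only site lay at 169 of the 980 and a +Dox-only site at 49 of the 407. In lists of equal length the counts were 691 and 639. Without the library labelled Control -Dox replicate 1 they were 1419 and 298, and without Control -Dox replicate 2 they were 2217 and 114. Without Control +Dox replicate 1 they were 688 and 674, and without Control +Dox replicate 2 they were 322 and 1732.

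Across 15 lists of 307 genes, 124 were bound in both conditions, 20 in −Dox alone (6.51%, against 4.48% of all genes) and 11 in +Dox alone (3.58%, against 1.86%). The lists also held more bound genes of any kind, with 46.9% bound without doxycycline against 31.3% of all genes. A −Dox-only site was found at 5 of the 20 and a +Dox-only site at 3 of the 11. Of the 20, 11 had some site in Control +Dox replicate 1 but not replicate 2, 4 the reverse, 2 a different site in each, and 3 none in either. Of the 11, 6 had a site in Control -Dox replicate 1 but not replicate 2, 4 the reverse, and 1 none in either.

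Among haematopoietic transcription factors 22 of 30 were bound in both conditions and 1 in −Dox alone. After Runx1, the highest was Zfpm1, the GATA1 cofactor, with a best percentile between 98.6 and 98.8 in every library. The exception was Gfi1b, a transcriptional repressor that erythroid and megakaryocytic differentiation requires, whose best peak stood at 36.0 and 58.9 without doxycycline, at 32.2 in Control +Dox replicate 2, and was not called in Control +Dox replicate 1. Megakaryocyte and platelet genes were bound in both conditions at 11 of 20. Itgb3 (integrin beta 3) and Selp (P-selectin) led, with best percentiles between 99.5 and 99.9 in every library. Gp5 and Vwf, a platelet receptor subunit and von Willebrand factor, were bound in +Dox alone. Gp5 lacked a peak in Control -Dox replicate 1, and Vwf in Control -Dox replicate 2, while the other libraries had one.

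Myeloid effector genes were bound in both at 10 of 25, led by Mmp9 (gelatinase B, 99.4 to 99.6) and Slc11a1 (a phagosomal metal transporter, 97.4 to 98.9). Ncf4, a subunit of the phagocyte oxidase, was bound in −Dox alone, with percentiles of 10.2 and 49.3 without doxycycline, none in Control +Dox replicate 1 and 22.6 in Control +Dox replicate 2. The integrin gene Itgam was bound in +Dox alone, and lacked a peak in the library labelled Control -Dox replicate 1 only. Without that library its call would not differ. Cytokine receptors were bound in both at 12 of 20, led by Il6ra (97.3 to 99.0) and Flt3 (85.1 to 89.3). Csf2ra, the GM-CSF receptor alpha chain, was bound in −Dox alone and Il6st, the shared gp130 chain, in +Dox alone, each through 1 library without a peak.

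The processes that doxycycline is known to touch were mixed. Mitochondrial ribosomal protein genes were bound in both conditions at 10 of 30. In −Dox alone 5 were bound (16.7%, against 4.48% of all genes), and in +Dox alone 1 (3.33%, against 1.86%). The list also held more bound genes, with 50% bound without doxycycline against 31.3% of all genes. The 5 were Mrpl3, Mrpl4, Mrpl12, Mrpl20 and Mrps14, and the 1 was Mrpl10. Only Mrpl12 and Mrps14 lacked a peak in both Control +Dox libraries, and their percentiles without doxycycline were 2.41 and 5.72 for Mrpl12 and 38.6 and 20.9 for Mrps14. By library, 19 and 16 of the 30 genes had a site without doxycycline and 16 and 14 with it. Mrpl15 and Mrps23 were the highest of those bound in both, with mean best percentiles of 80.3 and 74.5.

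Cytosolic ribosomal protein genes gave the same counts of difference. In −Dox alone 5 of 25 were bound (Rpl5, Rpl8, Rpl13, Rpl19 and Rps16), or 20% against 4.48% of all genes. Each of the 5 also had a site in at least 1 Control +Dox library. This list too held more bound genes, with 64% bound without doxycycline against 31.3% of all genes. In +Dox alone 1 was bound (Rpl32), or 4% against 1.86%. A further 11 were bound in both, led by Rpl18 and Rps9. By library, 18 and 17 of the 25 had a site without and 18 and 15 with doxycycline. Rpl8 had sites in all 4 libraries, though no single site in both Control +Dox libraries. In both ribosomal lists Control +Dox replicate 2, the shortest list, had the fewest genes. The part of list length in these counts was not tested for the lists. Over all genes, 38.2% and 33.8% had a site without and 37.7% and 31.2% with doxycycline.

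In the oxidative phosphorylation list 0 of 25 genes were bound in 1 condition alone and 11 in both, among them Sdhb (98.6 to 99.4), a succinate dehydrogenase subunit, and Cyc1, cytochrome c1. The count was also 0 for glycolysis and hypoxia genes, with 10 of 20 bound in both, led by the glycolytic enzyme genes Gpi1 and Pkm. It was 0 too for matrix metalloproteinases and their inhibitors, with 2 of 17 bound in both, Mmp14 and Mmp19. Mmp8 and Mmp9 were counted with the myeloid effector genes instead, where Mmp9 was bound in both conditions and Mmp8 in neither. Over all genes 4.48% and 1.86% were bound in −Dox and +Dox alone, so in lists of this size a count of 0 is near the background. For the stress response list, 7 of 23 were bound in both, with Ddit3 and Sesn2 highest. Atf5 and Trib3 were bound in −Dox alone, and Gdf15 and Cebpg in +Dox alone. Atf5 had its highest percentile, 56.0, in Control +Dox replicate 1. Gdf15 had a best percentile of 31.5 in Control -Dox replicate 2, and Cebpg one of 39.8 in Control -Dox replicate 1. Trib3, a pseudokinase induced by the integrated stress response, had percentiles of 27.1 and 22.4 without doxycycline and no peak with it. Atf4, the central factor of that response, was bound in all 4 libraries at 71.7 and 28.4 without and 84.0 and 42.0 with doxycycline. It was chosen for mention after its values were seen.

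Cell cycle genes were bound in both at 14 of 20, led by Ccnd3 and E2f2. Rb1 and E2f1 were bound in −Dox alone and Ccnb1, cyclin B1, in +Dox alone. Lists of other lineages served as a comparison. Tfrc was the 1 of 12 erythroid genes bound, in both conditions, and Map2 the 1 of 12 neuronal genes. No liver gene was bound in both, and Apoa2 was bound in −Dox alone, though its highest percentile, 36.4, was in Control +Dox replicate 1. Of 16 lymphoid genes Cd3d and Cd79a were bound in both, Lck and Il2ra in −Dox alone, and Cd3g in +Dox alone. Lck and Il2ra each had a site in Control +Dox replicate 1 too, at 6.86 and 57.7. Cd3g had one in Control -Dox replicate 1, at 2.17. Lck, a T cell kinase gene, carried a −Dox-only site, and Cd3g, a T cell receptor chain, a +Dox-only site at percentiles of at most 8.95.

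**Figure D5:**
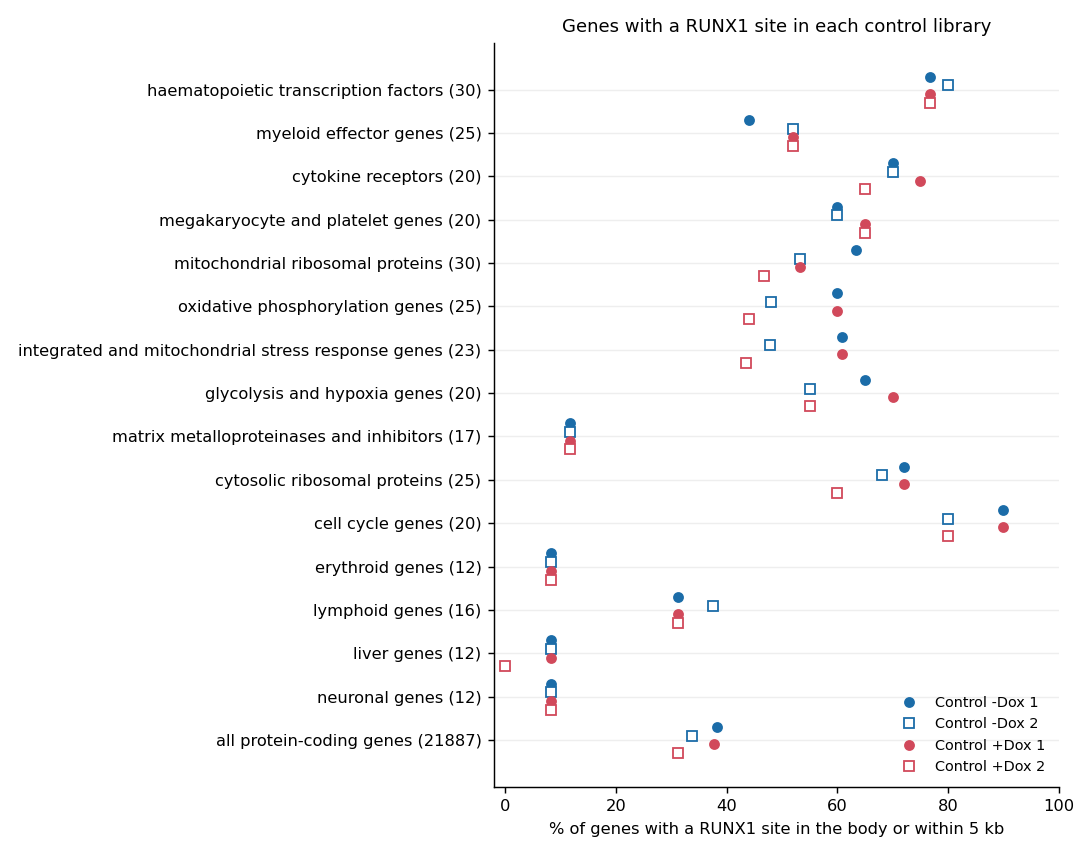
Share of the genes of each list with a RUNX1 site in the gene or within 5 kb (horizontal axis, %), for each of the 4 control libraries, with the number of genes in brackets. For haematopoietic transcription factors the 4 libraries lie between 76.7 and 80%, and for all protein-coding genes between 31.2 and 38.2%, where both replicate 1 libraries lie above both replicate 2 libraries.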

How the data were processed

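Peak lists of 16 ChIP-seq libraries were used, 1 list per sample, with the 4 RUNX1 lists of control cells as the main data. The IgG sample was not analysed here. Per the submitters' processing notes, Bowtie2 2.0.6 and MACS2 2.0.10 were used with the mm10 build. Which background the peak caller used, how reads were filtered and how deep the libraries were is not given in the sources used here. Depth being unknown, list length sets the precision. Scores were deposited by the authors as −log10 p, a reading checked on the values: every list starts just over the threshold that its peak names state.

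Peaks on chromosomes 1 to 19, X and Y with a score of 9 or more were merged at 1 bp of overlap (Python 3.11.15, numpy 2.4.6, scipy 1.17.1). CHD7 lists were used as deposited, with no minimum score. Groups came from the labels. Per-library values were compared by an exact permutation test (two-sided, 6 assignments), adjusted over 5 tests by Benjamini-Hochberg. Nothing says that replicates were separate cultures, so p-values reflect the spread among these libraries alone, which may be technical. Single sites and classes were not tested. Genes came from the RefSeq table of GRCm38.p6 and promoters from its promoter table, which lacks chromosome 18. Exons, introns and UTRs were not used here. Merging and the permutation test were tested on simulated data.

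The sites, gene lists and comparisons were chosen with earlier results of these data known. Named were the 10 highest sites of each class by mean percentile rank, the 5 shared sites with the largest rank difference in each direction, Runx1, and from each list up to 4 genes whose call differed and up to 2 bound in both. Others were named after their values were seen. Some items that the rule names are not reported here. Alternatives were lists as deposited, a minimum score of 15, lists of equal length, an overlap of 0.5 of the shorter interval, a gene window of 1 kb, each library left out, and the replicate block.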

Additional observations from a re-analysis of the deposited data

How the results depend on the processing

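Of 128 recomputed values, 80 kept to the limit for their kind, 34 moved past it and 14 changed sign. The limit was the same direction for a tested value, 1.5 times for a count, and 1 SD between libraries for a share with no test. With 1 library left out, −Dox-only sites numbered 1149 to 1369 and +Dox-only sites 471 to 1246. Genes bound in −Dox alone then numbered 322 to 2217 and in +Dox alone 114 to 1732. Shared sites ranked higher with doxycycline numbered 2929 to 3394, and those ranked lower 2687 to 3479. Fewer libraries to agree makes each rule easier to meet, by construction. The gene-end difference ran from -4.73 to 4.42 percentage points. The mean share of −Dox-only sites called in CM -Dox cells ran from 39.0 to 68.7%, and of +Dox-only sites from 24.0 to 67.5%. The CHD7 difference ran from -8.91 to 0.836 at −Dox-only, from -3.62 to 5.80 at +Dox-only and from -8.21 to 6.04 at shared sites, over RUNX1 libraries and, as alternatives chosen after seeing the data, CHD7 libraries left out.

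With equal list length there were 244 +Dox-only sites and 639 genes bound in +Dox alone. The gene-end difference was 0.972, the CHD7 difference at +Dox-only sites -2.87, and the mean shares called in CM -Dox cells 41.1% for −Dox-only and 32.8% for +Dox-only sites. With a minimum score of 15 the last was 52.7% and the CHD7 difference at +Dox-only sites -4.42. The cause was not tested. The ratio of peak numbers is 1 by construction in lists of equal length and was not computed there, and the overlap rule does not bear on it or on the gene-end share. No call depended on a setting, since no test could reach 0.05.

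The labels give replicate numbers 1 and 2 in both conditions. With the replicate block, the ratio of peak numbers was 0.943 (exact permutation of signs, p = 0.5, the smallest possible), and the differences keep their values: -0.152 for gene ends, and -4.04, 1.09 and -1.08 for CHD7. Over the 9361 shared sites the replicate 1 minus replicate 2 rank correlated at 0.518 between conditions. The labels do not say that a number marks a shared batch or day, and there are only 2 pairs, so the numbers were not taken to pair the libraries. Lists of the same number do share a deposited threshold and resemble each other, and whether they were handled together is not given in the sources used here.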

Other observations

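Of the 9361 shared sites, 358 were called by no RUNX1 library of CM cells, with or without doxycycline. Of these, 5 had a mean percentile rank over 90, where 1229 shared sites stood. The highest was the site 12.1 kb from Trpc6 (chr9:8692853-8693804), with a mean percentile rank of 99.96 in the control lists, and the next was also nearest to Trpc6, 55.6 kb away (chr9:8487624-8488282), at 97.2. Both were called by all 4 control CHD7 libraries and by none of the CM CHD7 libraries. In the 206 kb that these sites span, each of the 4 control RUNX1 lists held 3 peaks and the control CHD7 lists 4 to 11, while all 8 lists of CM cells, with either antibody, held 0. The third lay 75.3 kb from Ednrb, the endothelin receptor B gene (chr14:103919852-103920597), at 95.2, with the same CHD7 calls. Control and CM cells are separate clones, and this difference does not follow doxycycline. Its cause was not tested. The stretch was picked after its values were seen.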
